A study of Arabidopsis thaliana with 18 samples.

Results

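The first pair of rosette leaves of 9-day-old Arabidopsis thaliana Col-0 seedlings was compared before culture and after 1 day of culture as detached explants. The comparison used the 3 libraries titled 9d time 0 (uncultured leaves) and the 3 titled 9d 1 DAC (cultured leaves), 6 of the 18 libraries of the series. The other 12 libraries were the same pair of groups from seedlings of 12 and 15 days, 3 libraries in each. All seedlings were wild type and grew in constant light at 22 °C on Murashige and Skoog medium with sucrose, and the cut leaves were then kept on B5 medium lacking sucrose. Polyadenylated RNA was sequenced on an Illumina instrument. Whether replicates were separate batches of plants is not stated in the labels, so p-values reflect library-to-library spread, which may be technical. Cultured leaves differed from uncultured ones by detachment and wounding, by the change of medium and by 1 more day of age, and these cannot be told apart in this design.

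A detached Arabidopsis leaf can regrow roots from the cut base. As background, the cut sets off jasmonate and reactive oxygen signals, auxin made in the blade collects near the wound, WOX11 turns vascular cells into root founder cells, and LBD16 and WOX5 mark the steps toward a root primordium. Leaves of young seedlings are known to regenerate roots more readily than older leaves, and at 9 days the first leaves still hold dividing cells, most of them toward the leaf base. In whole-leaf RNA a lower level can come from fewer cells of a type or from less RNA per cell, and these cannot be told apart here.

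Library totals ranged from 29664089 to 51126114 expected counts over the 18 libraries and from 30493240 to 51126114 over the 6 from 9-day seedlings. Values below are library-scaled counts (CPM), which are counts relative to the total of the library after edgeR's scaling, given for replicates 1, 2 and 3 in that order. The first principal component of the 6 libraries held 60.1% of the variance and separated cultured from uncultured leaves. The second held 18.6% and separated replicate 3 of both groups from replicates 1 and 2. Log2 CPM values of libraries of 1 group correlated across genes with r between 0.963 and 0.983. Uncultured replicate 2 was apart from its group at 12 days and again at 15 days, and the deviations of these 2 libraries from the group means correlated with each other at 0.662. They enter this comparison through the estimate of spread, and all 18 libraries also set which genes were tested and the scaling. Leaf identity matched the label: RBCS1A, the Rubisco small subunit gene, had the highest TPM (a measure scaled for transcript length) in each of the 6 libraries. Of the shoot meristem and boundary markers none of 7 had enough counts for a test, with summed levels of 0.239 to 0.535 CPM before and 0.216 to 0.328 CPM after culture and WUS at 0 throughout. The 7 root markers summed to 44.4 to 58.0 CPM before and 17.9 to 47.4 CPM after culture, nearly all of it from PYK10, with RHD6 at 0. Among 4 seed storage markers CRU3, OLEO1 and SESA3 were at 0. None of the 7 leaf markers passed the test.

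After 1 day in culture 1215 of 20952 tested genes were higher and 780 were lower at an adjusted p under 0.05, which is 5.80% and 3.72% of the genes tested. Counts over gene lists are to be read against these shares, and 1 call in a list of 10 to 20 genes is close to them. The rises were larger than the falls: the median log2 fold change was 1.95 among genes called higher and -1.01 among those called lower, and 400 genes rose at least 8-fold while 47 fell as far. The median of all genes tested was -0.00555, and the quartiles were -0.329 and 0.346. Of the called genes 8 had groups that overlapped, whereas in 18.2% of all tested genes every cultured library lay above every uncultured one and in 16.5% below. There were 34 genes with no count in the 3 uncultured libraries and at least 10 counts in each cultured one, and 4 genes of the reverse kind. With replicate 3 left out of every group 442 genes were called higher and 387 lower. Without uncultured replicate 1 or 2 the higher calls were 725 and 717. The lower calls were 414 and 364 without those libraries and 379, 298 and 470 without cultured replicate 1, 2 or 3. Blocking on replicate number gave 1679 genes that were higher and 1385 lower, and without the 2 older uncultured libraries that stood apart 2181 and 1666 were.

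**Figure D1:**
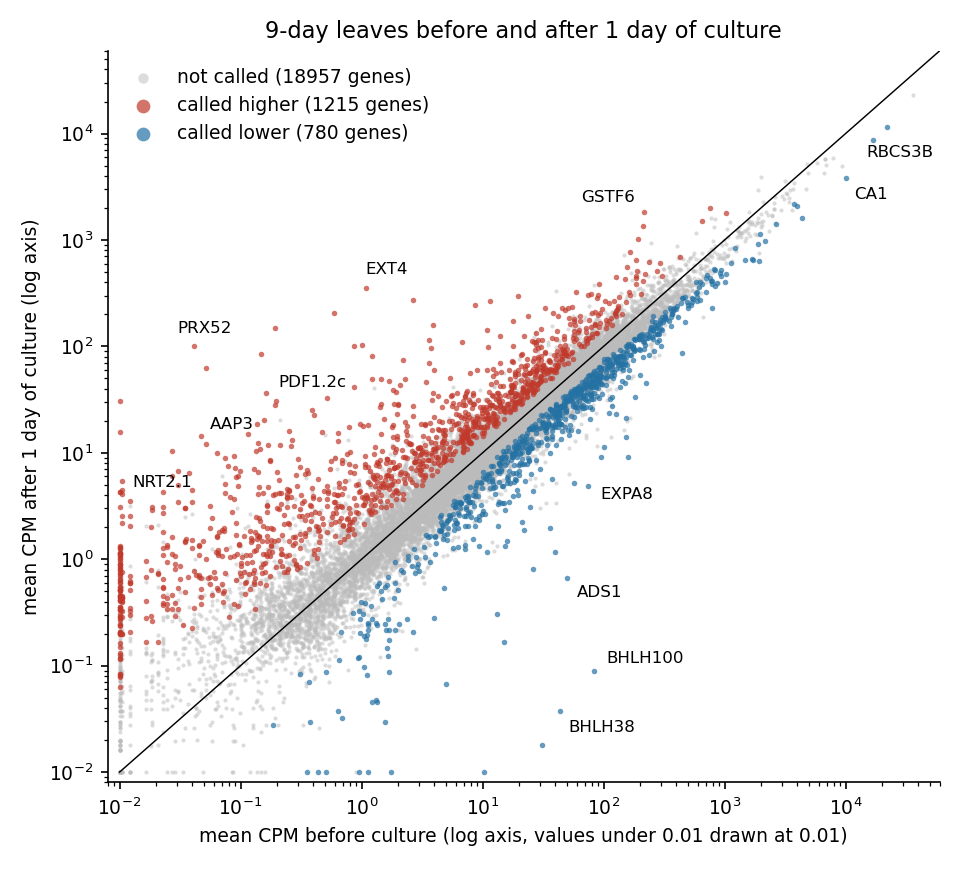
Mean CPM of each tested gene in the 3 uncultured libraries (x axis, log scale) against the 3 cultured libraries (y axis, log scale), with genes called higher, called lower and not called in different colours. PRX52 rises from 0.0551 CPM or less to between 81.6 and 120 CPM, and the iron regulator BHLH100 lies at the other edge, falling from 52.2 CPM or more to 0.120 CPM or less.

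Many of the genes with the largest rises encode proteins of the cell wall and defence. The carriers NRT2.1 (log2 fold change 8.78) and AAP3 (8.05), given further below, were also among the largest rises. PRX52, a secreted class III peroxidase of the kind that cross-links lignin, stood at 0.0315, 0.0369 and 0.0551 CPM before culture and at 120, 105 and 81.6 CPM after it. This is a log2 fold change of 11.08 ± 0.43 (SE, n = 3 per group, adjusted p = 1.629e-09), and the groups were far apart. EXT4, an extensin that stiffens the wall, went from 2.14, 0.922 and 0.183 CPM to 522, 284 and 245 CPM, a log2 change of 8.37 ± 0.90. EARLI1, a small secreted protein of the lipid-transfer type, went from 1.13, 0.406 and 0.239 CPM to 253, 201 and 158 CPM. Its neighbours AT4G12490, AT4G12495 and AT4G12500 rose by 9.60, 10.32 and 9.18 on the log2 scale, but AT4G12490 and AT4G12495 overlap on opposite strands and the family members are near copies, so how reads were divided among them is uncertain. AT1G30760, of the berberine bridge enzyme family, had no counts before culture and 11.7, 12.2 and 23.0 CPM after it, at least 610.5-fold higher when 3 counts over the whole group are taken as the floor. Prx37 had 1 count before culture and 49.5, 24.5 and 18.7 CPM after it, a ratio of 3395 with an exact 95% interval from 609 to 134100. UPI, a protease inhibitor, had 3 counts before and a ratio of 380 (130 to 1847), where the intervals cover counting error alone. All of these calls held when any 1 of the 6 libraries was left out and without replicate 3.

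Families, here and below, were counted after these values had been seen. They hold the genes whose product description in the reference opens with the family's term, so members described otherwise are left out. Their counts stand against 5.80% higher and 3.72% lower among all tested genes. Of 34 tested class III peroxidases 12 rose and 2 fell, and the median log2 fold change was 2.11. AT5G64120 went from 5.54, 1.44 and 1.06 CPM to 311, 247 and 256 CPM, and its neighbours AT5G64100 and AT5G64110 had no counts before culture. Of 48 tested glutathione S-transferases, which conjugate glutathione to reactive compounds, 18 rose and none fell. GSTF6 showed the largest gain in CPM of all called genes, from 269, 277 and 98.9 to 1737, 1890 and 1873 CPM, although its near copy GSTF7 can share its reads and the call of GSTF6 was lost in all 6 fits with 1 library left out (adjusted p up to 0.129). GSTU4 rose from 0.252, 0.148 and 0.349 CPM to 9.75, 15.6 and 22.7 CPM. Of 8 tested chitinases, which cut the fungal wall polymer chitin, 4 rose, among them AT2G43590 from 14.9, 8.71 and 10.6 CPM to 350, 240 and 206 CPM. Among 32 cysteine-rich receptor kinases 11 rose, and none fell. The berberine bridge enzyme family had 7 of 19 members higher and 1 lower, AT5G44440, which had 0.661, 1.55 and 3.08 CPM before culture and no counts after it. Phytosulfokine precursors give rise to a secreted growth peptide, and 3 of 4 tested rose. PSK5 went from 5.13, 4.94 and 4.83 CPM to 26.8, 34.4 and 30.5 CPM, and PSK4 rose by 3.06 ± 0.61 on the log2 scale. Without replicate 3 the calls of AT5G64110, AT5G64120, GSTF6, PSK4 and PSK5 were lost (adjusted p up to 0.158).

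WRKY factors bind the W-box and include regulators of defence, and 13 of 44 tested rose while none fell. WRKY60 rose from 1.64, 1.59 and 2.39 CPM to 35.2, 28.1 and 23.6 CPM. WRKY31 had 1 count in the 3 uncultured libraries and 3.28, 2.31 and 2.06 CPM in the cultured ones. WRKY18, WRKY33 and WRKY40, which are known as early targets of immune and wound signals, were not called, and WRKY40 stood at 10.6, 21.5 and 2.75 CPM before and 7.75, 12.5 and 11.4 CPM after culture. The W-box letters TTGACC or TTGACT, searched on both strands in the 250 bases before the gene start, were present in 28.2% of the promoters of tested genes. They were present in 428 of 1186 promoters of genes called higher (36.1%) and in 164 of 763 promoters of genes called lower (21.5%). A match describes the letters and is not a binding site.

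**Figure D2:**
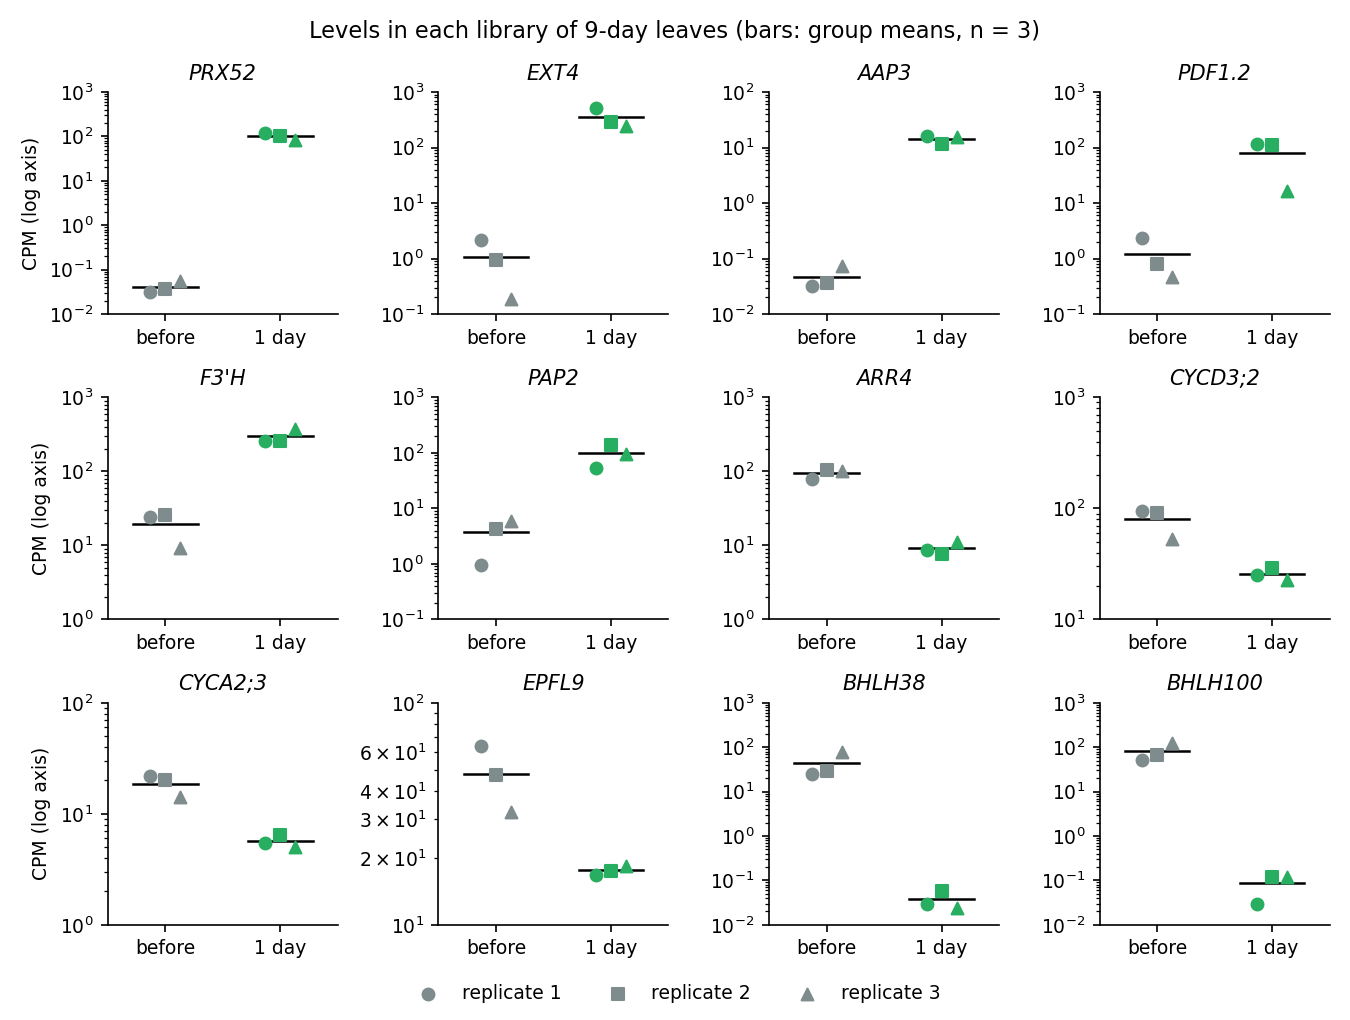
Level of 12 genes in each of the 3 uncultured and 3 cultured libraries (CPM, log axis), with the mean of each group as a line and the replicate number in the point's shape. In each panel the groups are apart, and PDF1.2 of cultured replicate 3 (16.7 CPM) lies well under the 115 and 111 CPM of the other replicates.

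Among 14 tested AP2/ERF factors linked to wounding and regeneration 4 rose and none fell, with a median log2 fold change of 0.635. ERF115, a wound-induced activator of cell replacement in roots, had no counts before culture and 1.25, 1.02 and 1.08 CPM after it, at least 42.2-fold higher. AT5G61890, a relative of ERF115, had 0, 0.0369 and 0.0551 CPM before culture and 5.76, 5.42 and 3.86 CPM after it. Rap2.6L, which is known from tissue reunion in cut stems, went from 0.126, 0.221 and 0.147 CPM to 2.27, 3.51 and 3.98 CPM. AT1G36060 went from 0.189, 0.0738 and 0.165 CPM to 2.00, 1.64 and 1.18 CPM, and its call was lost without uncultured replicate 2 or 3 (adjusted p up to 0.0713 over the 6 fits that left out 1 library) and without replicate 3 of every group. WIND1, a promoter of callus at wounds, stood at 78.6, 158 and 96.7 CPM before and 93.9, 79.1 and 98.2 CPM after culture and was not called. PLT3, PLT5 and PLT7, PLETHORA genes that act in regeneration and root meristems, were not called either, and PLT3 stood at 3.40, 3.25 and 5.07 CPM before and 3.07, 2.75 and 4.80 CPM after.

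Of 16 regulators of root founder cells and primordia 8 had enough counts for a test, 3 rose and none fell. WOX11 had no counts in any uncultured library and 0.567, 0.322 and 0.120 CPM in the cultured ones, 35 counts in all and at least 12.1-fold higher. LBD16 went from 3 counts to 1.04, 0.615 and 0.696 CPM, a ratio of 29.4 with an exact 95% interval from 9.71 to 145. NAC1, a NAC factor that acts in root regeneration, rose from 1.04, 0.959 and 0.624 CPM to 9.22, 6.29 and 3.69 CPM, a log2 change of 2.88 ± 0.40 (adjusted p = 0.000459). WOX5, the later marker of the root stem cell niche, had 2 counts before and 16 after culture, too few for a test. WOX12 had 0 and 2 counts, and LBD29, PLT1 and PLT2 had none. SHR and SCR, which pattern the ground tissue and are also expressed in leaves, stood at 18.4, 13.7 and 12.2 CPM and at 27.2, 24.8 and 23.4 CPM before culture and were not called, though SHR was called lower with the replicate block (adjusted p = 0.0449). The calls of LBD16 and NAC1 held in all 6 fits with 1 library left out. That of WOX11 was lost in 5 of them, the exception being the fit without cultured replicate 3, with adjusted p up to 0.0680.

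Genes of auxin synthesis gave 1 call among 12 tested members. TSB2, a tryptophan synthase subunit, rose from 9.41, 9.52 and 6.94 CPM to 17.9, 14.4 and 23.5 CPM, a call lost in 5 of the 6 fits that left out 1 library. ASA1, an enzyme of tryptophan synthesis known from wounded leaf explants, stood at 32.1, 37.7 and 40.1 CPM before and 43.4, 39.5 and 46.5 CPM after culture, without a call. The YUCCA enzymes that make auxin were likewise uncalled: YUC2 stood at 3.27, 5.64 and 6.48 CPM before and 3.73, 3.69 and 2.35 CPM after. YUC8 and YUC9 stayed at or below 0.626 CPM in all 6 libraries, and YUC1, YUC3, YUC4, YUC7 and YUC11 had too few counts. Genes that respond to auxin did include rises, 4 of 16, and no falls. GH3.3, which conjugates auxin to amino acids, went from 0.157, 0.111 and 0 CPM to 9.99, 6.64 and 5.01 CPM. GH3.2 and GH3.5 of the same family rose by 4.999 ± 1.202 and 1.97 ± 0.58 on the log2 scale, and AT1G14130 by 1.04 ± 0.28. Without replicate 3 none of the 4 passed, and only GH3.3 held in all 6 fits with 1 library left out. Of 13 auxin carriers 1 was lower, the influx carrier LAX2, which fell from 19.0, 19.4 and 19.5 CPM to 10.8, 9.92 and 12.4 CPM and was lost without cultured replicate 2 (adjusted p = 0.0591). With the replicate block 3 carriers were lower and 1 higher.

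Called cytokinin genes were lower with 1 exception. Of 18 tested members of the list 6 fell and 1 rose, and the median log2 fold change was -0.857. Type-A response regulators are rapid cytokinin targets that feed back on the pathway. ARR4 fell from 79.2, 104 and 101 CPM to 8.77, 7.67 and 11.2 CPM, a log2 change of -3.36 ± 0.35 (adjusted p = 4.765e-05). ARR7 went from 7.14, 19.96 and 20.9 CPM to 1.103, 1.41 and 1.94 CPM, and ARR9 and ARR15 fell too. CKX4, a cytokinin oxidase, fell from 5.95, 7.20 and 8.52 CPM to 1.16, 0.937 and 1.68 CPM. IPT9, an enzyme that modifies transfer RNA to give cis-zeatin, fell by 1.11 ± 0.22 on the log2 scale. IPT7, an enzyme of the first step of cytokinin synthesis, went the other way, with no counts before culture and 0.805, 0.556 and 0.576 CPM after it, at least 24.2-fold higher. Between 5 and 6 members were lower with any 1 library left out, 4 without replicate 3, and 10 without the 2 libraries that stood apart. The call of ARR7 was lost without cultured replicate 1 or 2, and those of ARR7 and ARR15 without replicate 3.

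Called genes of the response to jasmonate, a wound hormone, were higher after 1 day. PDF1.2, an antifungal defensin known as a joint target of jasmonate and ethylene, rose from 2.39, 0.812 and 0.459 CPM to 115, 111 and 16.7 CPM, a log2 change of 6.07 ± 0.90. PDF1.2c rose from 0.283, 0.111 and 0.0918 CPM to 55.7, 47.6 and 5.78 CPM, and the PDF1.2 copies are near identical, so reads may be divided between them. ERF1, an activator of PDF1.2, went from 0.157, 0.111 and 0.0367 CPM to 0.537, 1.52 and 0.528 CPM. VSP2, a storage protein gene of the wound branch that MYC2 activates, stood at 406, 414 and 287 CPM before and 161, 156 and 315 CPM after culture and was not called. None of the 12 JAZ repressors of the list was called, though JAZ12 was called higher with the replicate block (adjusted p = 0.0406). Without the 2 libraries that stood apart JAZ2, JAZ3 and JAZ5 were called higher (adjusted p = 0.0078, 0.0081 and 0.042). Over the list 3 of 19 members rose, the third being the thionin gene THI2.1. Without replicate 3 the calls of ERF1 and THI2.1 were lost. Of 13 genes of jasmonate synthesis 1 rose, AOC1, from 27.7, 30.7 and 18.5 CPM to 102, 130 and 103 CPM, and it belongs to a family of similar copies. Without the 2 libraries that stood apart 6 genes of the synthesis list rose. The promoter of PDF1.2 is shown because it holds the GCC-box GCCGCC, the letters bound by ERF factors, which 1.87% of all 27443 promoters hold on either strand. The letters, in capitals, begin 222 bases before the gene start, and the 250 bases shown lie at chr5:17907639-17907888 on the minus strand of TAIR10.1.
PDF1.2: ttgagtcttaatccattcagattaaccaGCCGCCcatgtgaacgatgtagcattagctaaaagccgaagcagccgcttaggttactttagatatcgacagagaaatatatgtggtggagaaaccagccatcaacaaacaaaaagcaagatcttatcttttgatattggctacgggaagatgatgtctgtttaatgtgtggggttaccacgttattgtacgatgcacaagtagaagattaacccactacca

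Salicylic acid and immunity genes gave 4 rises and 1 fall among 18 members. PR5, a thaumatin-like defence protein, rose from 8.18, 6.16 and 7.16 CPM to 41.9, 31.9 and 26.2 CPM in all 3 replicates. FMO1, needed for systemic resistance, had 1 count before culture and 0.626, 0.439 and 1.03 CPM after it, a call lost without replicate 3 (adjusted p = 0.104). PR1, the standard salicylic acid marker, rested on 1 library, at 0.0944, 0.0738 and 0.129 CPM before and 0.209, 0.205 and 19.8 CPM after culture. PR2, a glucanase, had 5.58, 3.42 and 75.2 CPM after culture from 3.15, 1.77 and 1.101 CPM. Without cultured replicate 3 neither PR1 (adjusted p = 0.604) nor PR2 (0.324) passed, and with the replicate block PR2 did not (0.0582). NIMIN1, a regulator of NPR1, fell by 1.93 on the log2 scale, a call kept in 1 of 6 fits with a library left out. Of 19 ethylene genes 1 rose, a share below that of all tested genes (5.80%). It was ACS2, an enzyme of ethylene synthesis, from 0.0944, 0.0369 and 0.0367 CPM to 1.31, 1.87 and 2.66 CPM. Among 19 dehydration and cold genes 3 rose. They were KIN1, a cold and drought protein, from 0.598, 1.14 and 0.661 CPM to 2.36, 12.5 and 15.7 CPM, and the abscisic acid genes CYP707A1 (1.79 ± 0.46 on the log2 scale) and ABF3 (1.08 ± 0.29). None of the 3 passed without replicate 3, and with 1 library left out CYP707A1 held in 0 and ABF3 in 1 of the 6 fits (adjusted p up to 0.0890 and 0.115). NCED3, which makes the precursor of abscisic acid, was at 0.755, 8.01 and 1.18 CPM before and 3.49, 3.89 and 6.21 CPM after culture, without a call. None of 14 touch and early stress genes was called. TCH4 stood at 303, 33.5 and 6.37 CPM before culture, so these genes already differed widely among uncultured leaves.

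Called flavonoid and anthocyanin genes were higher in cultured leaves. All 16 enzymes had a positive fold change with a median of 1.65 (log2), 7 of them rose by the test, and none fell. F3'H, which sets the hydroxylation of flavonoids, rose from 24.1, 25.8 and 9.36 CPM to 254, 261 and 376 CPM, a log2 change of 3.91 ± 0.53 (adjusted p = 0.000352). F3H rose from 220, 231 and 126 CPM to 702, 913 and 1423 CPM. The general phenylpropanoid enzymes PAL1, PAL2 and C4H rose by 1.38 ± 0.34, 1.52 ± 0.23 and 0.95 ± 0.26 on the log2 scale, and the glycosyltransferases AT4G14090 and UGT78D2 by 2.33 ± 0.70 and 1.68 ± 0.35. DFR, the first step committed to anthocyanins, stood at 212, 212 and 79.1 CPM before and 470, 552 and 439 CPM after culture and was not called. CHS, the entry step, stood at 733, 684 and 327 CPM before and was not called either. Of 12 regulators 5 rose. They included the MYB activators PAP1, from 5.54, 21.6 and 14.8 CPM to 97.1, 107 and 168 CPM, and PAP2, from 0.976, 4.21 and 5.98 CPM to 54.4, 142 and 96.8 CPM. TT8, GL3 and MYB12 were the others. With 1 library left out 3 to 5 enzymes and 1 to 3 regulators were higher, and without replicate 3 there were 2 and 1. Without the 2 libraries that stood apart 14 enzymes and 6 regulators were higher. F3'H and PAL2 held in every one of these fits, and PAP2 and UGT78D2 in all but that without replicate 3. The calls of PAP1, GL3, AT4G14090 and C4H were lost in all 6 fits with 1 library left out, with adjusted p up to 0.155 for PAP1, while F3H and MYB12 held in 1 of them, PAL1 in 3 and TT8 in 4.

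**Figure D3:**
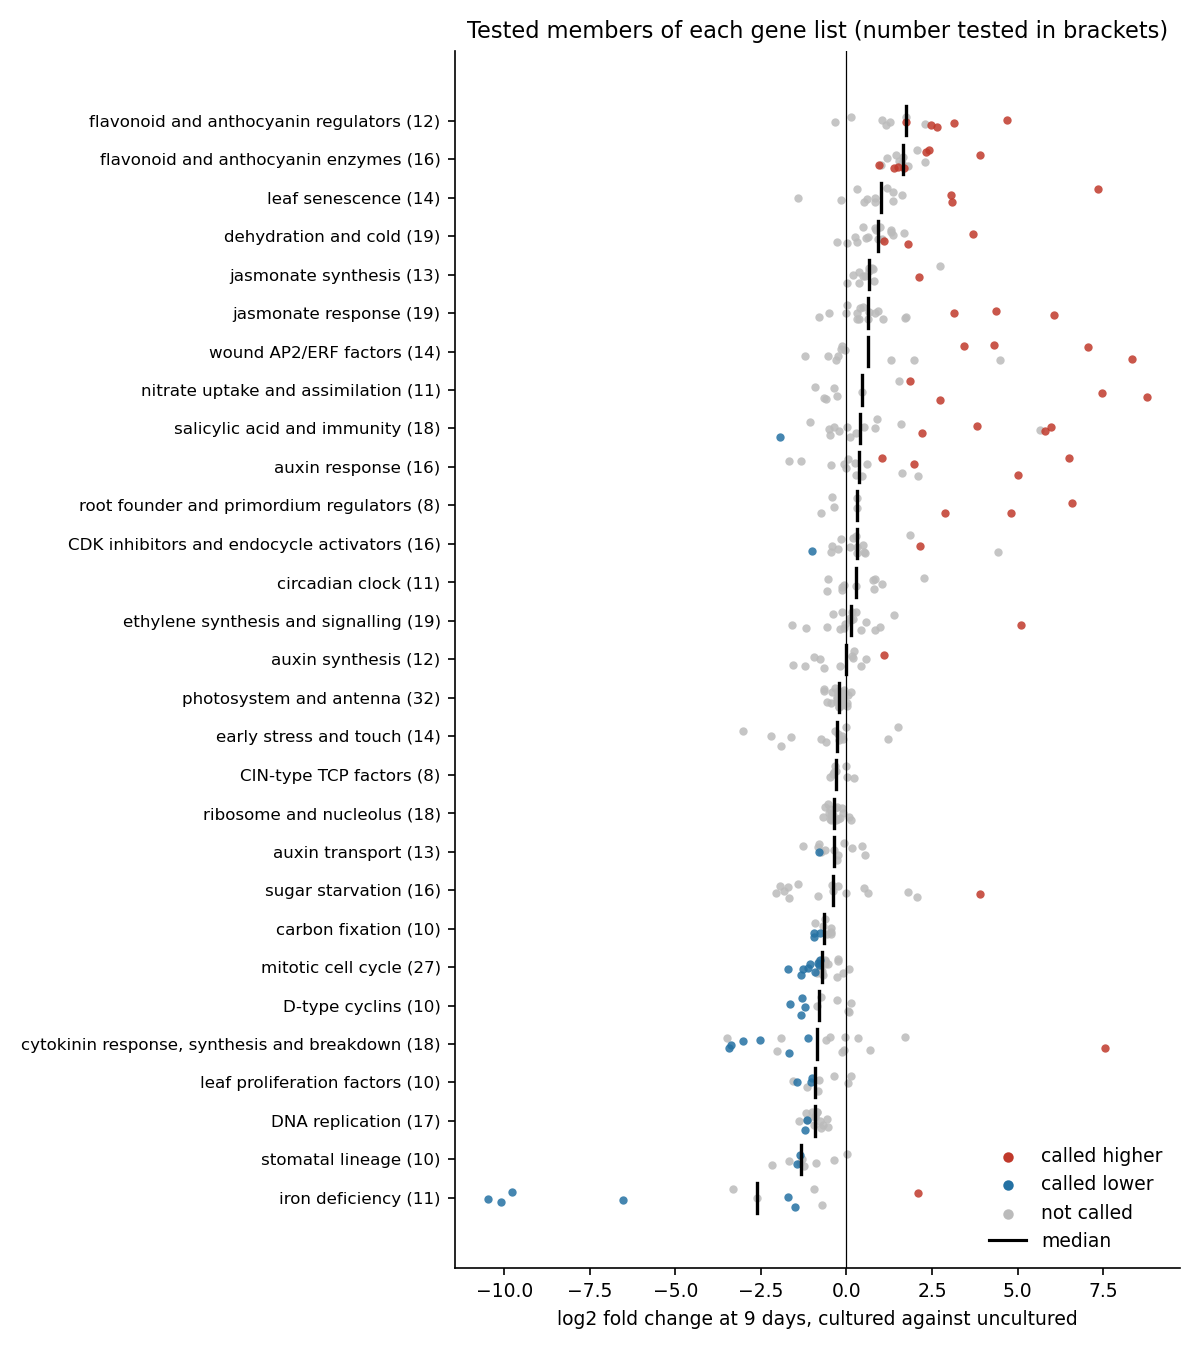
Log2 fold change (cultured against uncultured leaves of 9-day seedlings) of every tested member of the gene lists, 1 line per list, with called members coloured and the list median as a bar. The iron deficiency list has the lowest median (-2.61), and the flavonoid regulators (1.73) and enzymes (1.65) have the highest.

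Every called mitotic gene was lower in cultured leaves. Of 27 mitotic genes 9 fell and none rose, and the list median was -0.717. CYCA2;3, an A-type cyclin that delays the switch to endocycles, fell from 21.8, 20.03 and 14.1 CPM to 5.46, 6.50 and 5.06 CPM, a log2 change of -1.72 ± 0.33 (adjusted p = 0.00443). CDC20.1, an activator of the anaphase-promoting complex, fell from 20.7, 21.3 and 19.4 CPM to 10.2, 10.4 and 8.83 CPM. KNOLLE, the syntaxin of the cell plate, fell from 23.3, 23.9 and 18.5 CPM to 12.6, 12.1 and 12.1 CPM. In these genes the groups were well apart. The B-type cyclins CYCB1;2 and CYCB2;1, the microtubule protein PLE, CYCA1;1, CYCA2;4 and the spindle checkpoint gene MAD2 fell too, with log2 fold changes between -0.76 and -1.32. CYCB1;1, the usual mitosis marker, stood at 3.37, 3.91 and 3.102 CPM before and 2.00, 2.25 and 2.399 CPM after culture, apart but not called. The number of calls was 3 to 7 with any 1 left out, 2 without replicate 3, 11 with the replicate block, and 13 with DESeq2 or without the 2 libraries that stood apart. CYCB1;2, CYCA2;4 and MAD2 passed in none of the 6 fits with 1 library left out and CYCA1;1 in 1, and CYCA2;3 held in all 6 but not without replicate 3 (adjusted p = 0.0523).

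The promoters of 3 of these genes are shown because mitotic genes are known for the MSA element, which MYB3R factors bind and whose core letters are AACGG. The core was found on either strand in the 250 bases before the gene start in 16 of the 27 mitotic genes (59.3%), and in 20.6% of all 27443 nuclear protein-coding genes. Capitals mark the core or its complement CCGTT. CYCB1;2 has 4 matches, the nearest 11 bases before the gene start, at chr5:1861704-1861953 on the minus strand. CYCB2;1 has 3 matches, at chr2:7663805-7664054 on the plus strand, and PLE has 2 at chr5:20964538-20964787 on the minus strand.
CYCB1;2: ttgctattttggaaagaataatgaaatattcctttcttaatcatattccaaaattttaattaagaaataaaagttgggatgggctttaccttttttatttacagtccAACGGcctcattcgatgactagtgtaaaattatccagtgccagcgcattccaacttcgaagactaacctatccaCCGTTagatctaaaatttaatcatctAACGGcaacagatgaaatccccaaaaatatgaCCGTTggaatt
CYCB2;1: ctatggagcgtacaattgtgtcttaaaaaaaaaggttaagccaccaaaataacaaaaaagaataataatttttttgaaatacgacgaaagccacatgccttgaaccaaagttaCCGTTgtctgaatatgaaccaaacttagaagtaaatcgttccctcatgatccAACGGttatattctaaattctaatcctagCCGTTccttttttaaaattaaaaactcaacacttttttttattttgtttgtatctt
PLE: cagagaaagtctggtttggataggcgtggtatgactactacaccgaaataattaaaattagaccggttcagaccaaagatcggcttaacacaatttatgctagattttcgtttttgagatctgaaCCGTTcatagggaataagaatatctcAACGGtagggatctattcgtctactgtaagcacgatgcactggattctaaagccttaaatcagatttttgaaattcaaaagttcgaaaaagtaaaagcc

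DNA replication genes had a list median of -0.926, with 2 of 17 called, both lower. CDC6, which loads the replicative helicase, fell from 4.28, 5.46 and 3.32 CPM to 2.24, 2.05 and 1.39 CPM, and CDT1B from 4.22, 5.13 and 4.64 CPM to 2.33, 2.14 and 1.87 CPM. The 6 helicase subunits of the MCM family had negative fold changes without a call, with MCM5 at 17.5, 21.2 and 24.1 CPM before and 10.8, 10.2 and 10.2 CPM after culture, called lower with the replicate block (adjusted p = 0.0467). With 1 library left out 0 to 1 replication genes passed, as CDT1B held in none of the 6 fits and CDC6 in 2, with the replicate block 4, and with DESeq2 or without the 2 libraries that stood apart 6 did. D-type cyclins link growth signals to the cell cycle, and 4 of 10 fell. CYCD3;2 fell from 95.7, 91.4 and 53.4 CPM to 25.1, 29.3 and 22.5 CPM, a log2 change of -1.65 ± 0.24 that held in every fit, and CYCD3;1 from 28.8, 21.8 and 21.1 CPM to 10.6, 10.4 and 9.81 CPM. CYCD1;1 and CYCD6;1 fell by 1.29 and 1.32 on the log2 scale, but held in 0 and 2 of the 6 fits with 1 library left out (adjusted p up to 0.108 and 0.0945). Without replicate 3 only CYCD3;2 of the 4 passed. Among 16 inhibitors and endocycle activators KRP6, an inhibitor of cyclin-dependent kinases, rose from 5.60, 5.90 and 6.55 CPM to 17.1, 22.9 and 39.6 CPM. CCS52B, which is expressed around mitosis, was the single member that fell, from 12.0, 12.9 and 15.4 CPM to 6.44, 7.61 and 6.12 CPM, a call kept in 1 of the 6 fits with 1 library left out (adjusted p up to 0.104). Neither KRP6 (adjusted p = 0.159) nor CCS52B (0.247) passed without replicate 3. None of 18 ribosome and nucleolus genes was called, and their median was -0.353.

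Called genes that keep leaf cells dividing, and called genes of the stomatal lineage, were lower. Of 10 tested leaf proliferation factors 3 fell and none rose. GRF4, a growth-regulating factor, fell from 15.2, 16.7 and 16.9 CPM to 5.58, 5.74 and 6.74 CPM, GRF2 (AT4G37740) from 8.65, 7.56 and 8.68 CPM to 4.83, 3.69 and 3.598 CPM, and ANT, which sustains organ growth, from 14.6, 13.5 and 14.2 CPM to 6.86, 6.79 and 7.29 CPM. The replicates of each group were close, but GRF4 and ANT did not pass in any fit with 1 library left out (adjusted p up to 0.126 and 0.098), and none of the 3 passed without replicate 3. None of 8 CIN-type TCP factors, which promote differentiation, was called, and TCP4 stood at 70.0, 82.0 and 103 CPM before and 75.1, 71.5 and 52.3 CPM after culture. Of 10 stomatal lineage genes 2 fell, and the median was -1.33. EPFL9, a peptide from inner leaf tissue that promotes stomata, fell from 63.9, 47.5 and 32.4 CPM to 16.8, 17.5 and 18.4 CPM, and SCRM2, a partner of the lineage factors, from 71.1, 77.7 and 95.3 CPM to 26.2, 29.04 and 40.3 CPM. SPCH, which starts the lineage, stood at 7.08, 7.90 and 7.19 CPM before and 2.56, 4.59 and 1.77 CPM after culture, apart but not called (adjusted p = 0.174), and was called lower without the 2 libraries that stood apart (0.0238). POLAR and BASL, markers of the dividing lineage cells, had log2 fold changes of -2.16 and -1.68 without a call, and both were called without those 2 libraries (adjusted p = 0.0150 and 0.0165), POLAR also with the replicate block (0.0281). With 1 library left out 0 to 2 members of the list were called, SCRM2 in 4 and EPFL9 in 3 of the 6 fits, with the replicate block 4, and without the 2 libraries that stood apart 5.

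Called carbon fixation genes were lower, and the light-harvesting list gave no call. Of 10 carbon fixation genes 3 fell, all 10 fold changes were negative, and the median was -0.649. RCA, the activase of Rubisco, fell from 18320, 18560 and 13260 CPM to 9901, 7412 and 8935 CPM, a log2 change of -0.93 ± 0.24. RBCS3B, a Rubisco small subunit gene with near copies, fell from 30480, 22750 and 13230 CPM to 12680, 11500 and 10100 CPM, and HCEF1, a fructose bisphosphatase, from 1943, 1961 and 1945 CPM to 986, 995 and 1448 CPM. These calls are close to the threshold. RBCS3B and HCEF1 each held in 1 of 6 fits with a library left out and RCA in 2, while the list had 6 calls with the replicate block. RBCS1A stood at 46470, 38060 and 24650 CPM before and 24110, 22750 and 21650 CPM after culture, and was called lower with the block (adjusted p = 0.0435) and not without it (0.0759). Among the largest losses in CPM, looked at after the values were seen, was CA1, a chloroplast carbonic anhydrase, which fell from 10610, 8651 and 10700 CPM to 3412, 2977 and 5159 CPM. The chloroplast chaperonin CPN60B fell from 1636, 2002 and 2132 CPM to 474, 464 and 956 CPM, a call kept in 1 of the 6 fits with a library left out. Of 16 tested genes of the plastid transcription machinery 4 fell, among them PTAC14 from 79.9, 94.6 and 116 CPM to 44.2, 40.4 and 49.9 CPM. None of the 32 photosystem and antenna genes was called, with a median of -0.209. Replicate 3 was low in both groups, and LHCB1.5 stood at 9166, 9455 and 1608 CPM before and 7849, 7757 and 1832 CPM after it.

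The largest falls were in the iron deficiency response. Of 11 tested genes 6 fell, 1 rose, and the median log2 fold change was -2.61. BHLH38, BHLH39, BHLH100 and BHLH101 encode related transcription factors that are switched on when iron is short. BHLH38 fell from 24.6, 28.5 and 77.2 CPM to 0.0298, 0.0585 and 0.0240 CPM, 4 counts in all. BHLH100 fell from 52.2, 68.0 and 128 CPM to 0.0298, 0.117 and 0.120 CPM, a log2 change of -9.78 ± 1.07 (adjusted p = 0.000139). BHLH39 fell from 18.1, 21.4 and 52.8 CPM to 2 counts, a ratio of 1943 with an exact 95% interval from 538 to 16050, and BHLH101 from 16.6, 9.999 and 18.7 CPM to 0.209, 0.293 and 0 CPM. In each the groups were far apart, and each call held with any 1 library left out and without replicate 3. BTS, an iron-sensing ubiquitin ligase, and FRO3, a ferric reductase, had log2 changes of -1.71 ± 0.32 and -1.51 ± 0.45. The call of FRO3 was lost with the replicate block (adjusted p = 0.0552), which left 5 falls in the list and no rise, and was kept in 1 of the 6 fits with a library left out. Without replicate 3 neither BTS (0.0857) nor FRO3 (0.499) passed. FER1, the ferritin that stores iron in plastids, went from 79.7, 59.1 and 25.6 CPM to 96.8, 147 and 458 CPM. Its call was kept in 1 of the 6 fits with a library left out, that without cultured replicate 1 (adjusted p up to 0.236 in the others), and was not made with the replicate block (0.0513). The bHLH genes were already low before culture in older leaves: BHLH38 stood at 0.314, 0 and 2.67 CPM in uncultured leaves of 12 days and at 0, 0 and 0.0244 CPM at 15 days. The part of leaf age in the fall was not tested.

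The promoters of BHLH38 and BHLH100 are shown as those of the genes with the largest falls that also hold a G-box, CACGTG, the palindrome that bHLH and bZIP factors bind. It occurs in 3 of the 11 promoters of the iron list (27.3%) and in 6.49% of all promoters. The share was 7.51% among promoters of tested genes and 6.16% among those of genes called lower. In BHLH38 it lies 97 bases before the gene start (chr3:21085246-21085495, minus strand), and in BHLH100 91 bases before it (chr2:17199455-17199704, minus strand).
BHLH38: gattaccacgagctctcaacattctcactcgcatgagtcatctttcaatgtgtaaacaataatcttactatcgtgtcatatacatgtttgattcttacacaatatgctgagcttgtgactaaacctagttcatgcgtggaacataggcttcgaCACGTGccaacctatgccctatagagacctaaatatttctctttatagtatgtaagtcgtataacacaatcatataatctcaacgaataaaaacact
BHLH100: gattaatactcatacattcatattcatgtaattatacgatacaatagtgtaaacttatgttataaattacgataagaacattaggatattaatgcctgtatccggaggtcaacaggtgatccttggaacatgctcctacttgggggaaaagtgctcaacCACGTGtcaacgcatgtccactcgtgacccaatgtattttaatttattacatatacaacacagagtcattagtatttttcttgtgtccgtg

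Called nitrate genes were higher. Of 11 tested nitrate genes 4 rose and none fell. NRT2.1, the main high-affinity nitrate carrier of roots, had 1 count before culture and 8.68, 5.21 and 2.52 CPM after it, a ratio of 595 with an exact 95% interval from 106 to 23540. NRT1.8 and NRT1.5, which unload and load nitrate at the xylem, also rose, NRT1.5 from 0.283, 0.480 and 0.477 CPM to 3.61, 1.49 and 3.21 CPM. GLN1;1, a cytosolic glutamine synthetase, rose from 53.6, 50.1 and 50.5 CPM to 175, 254 and 127 CPM, a log2 change of 1.85 ± 0.22. Without replicate 3 only NRT2.1 and GLN1;1 passed, with adjusted p of 0.167 for NRT1.8 and 0.0708 for NRT1.5, and NRT1.8 was lost without uncultured replicate 2 or 3 (up to 0.0609). The reductases NIA1 and NIA2 were not called, and NIA2 stood at 645, 644 and 191 CPM before and 556, 283 and 308 CPM after culture. Amino acid permeases, counted after the values were seen, gave 4 rises among 7 tested. Of the 4 only AAP3 passed without replicate 3, and AAP5 and AAP7 held in 1 and 2 of the 6 fits with a library left out. AAP3, a permease of the vasculature, went from 0.0315, 0.0369 and 0.0734 CPM to 16.5, 11.7 and 15.4 CPM, a log2 change of 8.05 ± 0.55. AAP2, which moves amino acids from xylem to phloem, rose from 15.6, 7.82 and 10.8 CPM to 36.3, 41.2 and 33.7 CPM, a call lost without replicate 3 (adjusted p = 0.0707). Of 34 tested UMAMIT-type transporters 5 rose and 1 fell. Of 16 sugar starvation genes 1 rose, a share close to that of all tested genes (5.80%). It was BCAT2, which breaks down branched-chain amino acids, from 0.220, 0.184 and 0.239 CPM to 2.06, 5.53 and 2.33 CPM, a call lost in 4 of the 6 fits with a library left out (adjusted p up to 0.0679) and without replicate 3 (0.129). The starvation marker DIN10 stood at 297, 25.8 and 26.1 CPM before and 64.0, 13.2 and 6.91 CPM after culture, without a call.

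Senescence genes gave 3 rises among 14 tested. SAG13, an early marker, went from 0.409, 0.111 and 0.0734 CPM to 15.1, 17.5 and 60.2 CPM, a log2 change of 7.35 ± 0.93. JUB1 and NAC6, a pair of NAC factors, rose by 3.08 ± 0.77 and 3.05 ± 0.87 on the log2 scale, and the calls held in 3 and 1 of the 6 fits with a library left out. SAG12, the marker of late senescence, had no counts in any of the 6 libraries, and the chlorophyll breakdown genes NYE1, NYC1, PPH and PAO were not called, except NYE1 with the replicate block (higher, adjusted p = 0.0259) and without the 2 libraries that stood apart (0.0334). None of 11 clock genes was called, but they differed between replicates, as CCA1 stood at 58.5, 80.3 and 9.82 CPM before and 72.9, 43.9 and 19.8 CPM after culture. CCA1 was lowest in replicate 3 of both groups, like the antenna genes, and its part in the results was not tested.

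Other genes with the largest falls had roles in lipids and walls. ADS1, a fatty acid desaturase, fell from 25.6, 57.8 and 66.0 CPM to 0.119, 1.67 and 0.192 CPM, and AT1G06360, annotated as a desaturase, from 183, 135 and 161 CPM to between 7.40 and 10.1 CPM. CYP77B1, a cytochrome P450, fell from 6.67, 12.0 and 12.3 CPM to 1 count, a ratio of 1166 with an exact 95% interval from 209 to 46070. AT1G10640, annotated as a pectin lyase-like protein, fell from 33.8, 42.4 and 32.4 CPM to 1.61, 1.93 and 2.30 CPM, and EXPA8, a wall-loosening expansin, from 64.2, 70.1 and 87.8 CPM to 8.41, 4.19 and 1.97 CPM. The call of EXPA8 was kept in 1 of the 6 fits with a library left out. AT4G02850, AT2G14247 and AT1G13609 had log2 changes between -4.998 and -5.405. Without replicate 3 the calls of AT1G06360, AT2G14247, AT1G13609 and EXPA8 were lost. Several of these genes were also lower in older leaves before culture, with AT1G06360 at 19.6, 5.83 and 21.7 CPM at 12 days and 0.0328, 1.86 and 0.0244 CPM at 15 days.

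More genes were called after the same culture in older leaves. At 12 days 4118 genes were called, 19.7% of those tested, 10.4% higher and 9.29% lower. At 15 days 8764 were called, or 41.8%, 21.0% higher and 20.8% lower. Of the genes higher at 9 days 852 were also higher at 12 days, which is 70.1% of the 9-day genes and 39.2% of the 12-day ones. At 15 days it was 713, or 58.7% and 16.2%. Of the genes lower at 9 days 506 were lower at 12 days (64.9% and 26.0%) and 343 at 15 days (44.0% and 7.87%). There were 650 genes higher and 314 lower at all 3 ages, among them PRX52, with log2 changes of 11.08 ± 0.43, 9.60 ± 0.40 and 10.53 ± 0.42 at 9, 12 and 15 days. Genes called at 9 days and at neither other age numbered 246 higher and 156 lower, which does not show that they respond at 9 days alone. Testing the difference of the responses called 11 genes for 9 against 12 days (0.0525% of those tested), of which 8 had the more positive fold change at 9 days (0.0382%) and 3 the more negative (0.0143%). For 9 against 15 days it called 4334 (20.7%), of which 9.71% of tested genes had the more positive change at 9 days and 11.0% the more negative. At an unadjusted p under 0.05 the first had 2207 genes, and DESeq2 called 444. Both differences use the same 9-day libraries.

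Called mitotic genes were lower after culture at 9 days and higher at 15 days. Of the 27 mitotic genes none was higher at 9 days, 7 were at 12 and 25 at 15 days (background 10.4% and 21.0% of tested genes), with list medians of -0.717, 0.512 and 2.13, and the difference between 9 and 15 days passed for 25, all with the lower fold change at 9 days (background 11.0%). CYCB1;1 stood at 3.37, 3.91 and 3.102 CPM in uncultured leaves of 9 days and at 0.0984, 0.0643 and 0.0489 CPM at 15 days. After culture it was at 2.00, 2.25 and 2.399 CPM at 9 days and 0.660, 0.575 and 0.938 CPM at 15 days, so the level stayed higher at 9 days although the fold change was the lower one (-0.64 ± 0.30 against 3.33 ± 0.40). The difference was -3.97 ± 0.51 (adjusted p = 0.000292). CYCD3;1 fell at 9 days and rose at 15 days, with log2 changes of -1.22 ± 0.27 and 0.92 ± 0.28. All 17 DNA replication genes and 17 of 18 ribosome genes passed the same difference, each with the lower fold change at 9 days, and the ribosome list had no call at 9 days and 18 rises at 15 days.

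**Figure D4:**
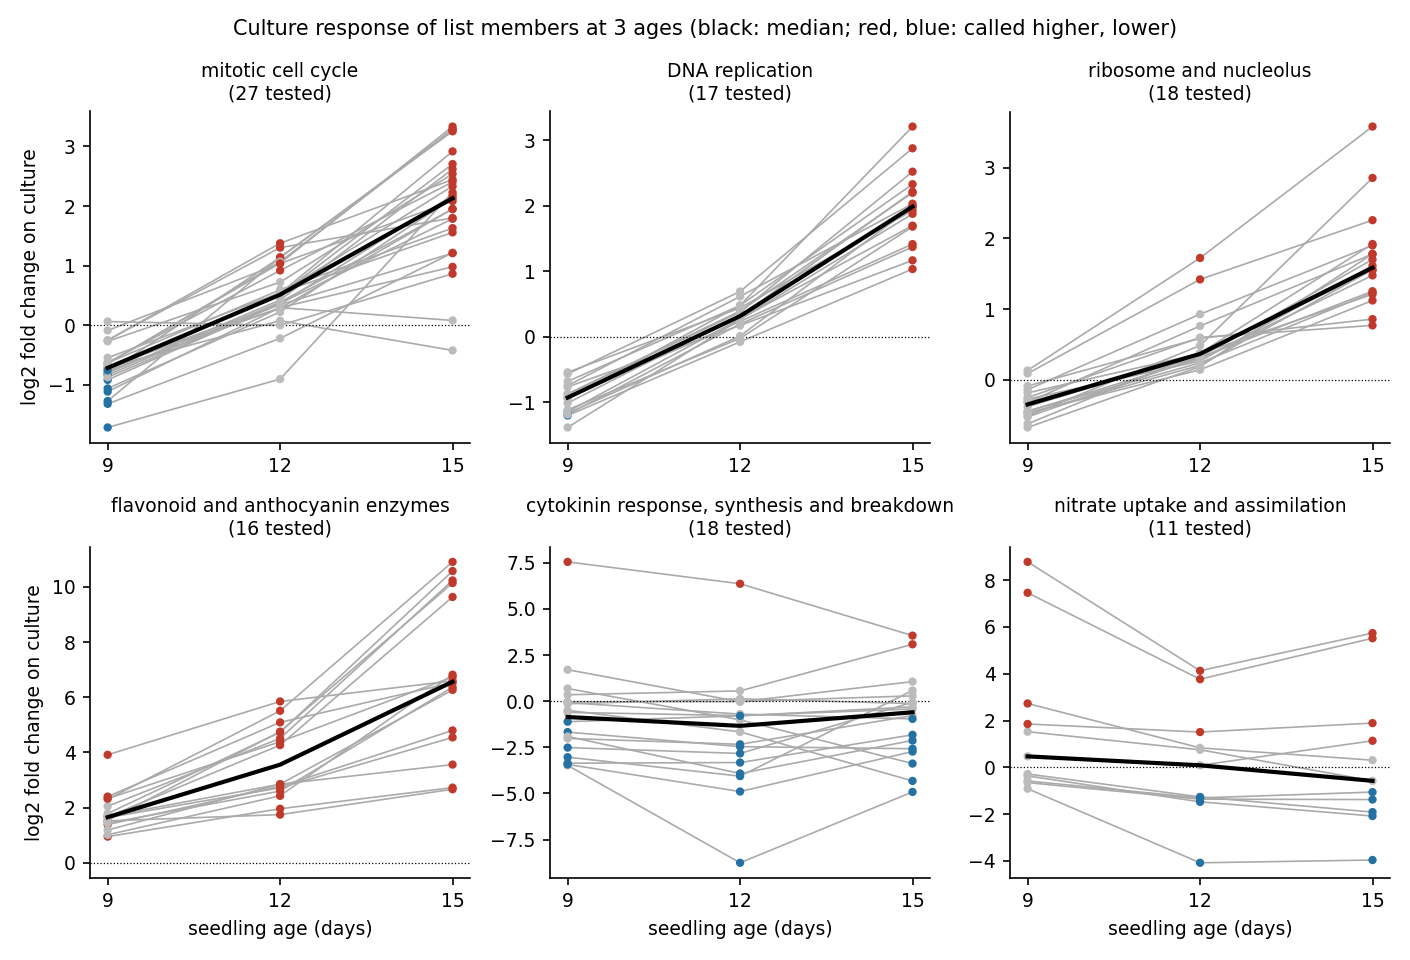
Log2 fold change after 1 day of culture (y axis) of the tested members of 6 gene lists at seedling ages of 9, 12 and 15 days (x axis), 1 thin line per gene with the list median in bold. The mitotic medians go from -0.717 to 0.512 and 2.13, and the flavonoid enzyme medians from 1.65 to 3.56 and 6.56.

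Flavonoid enzymes had smaller fold changes at 9 than at 15 days. All 16 rose at 12 and at 15 days, with medians of 3.56 and 6.56 against 1.65 at 9 days, and all 16 passed the difference between 9 and 15 days. DFR reached 470, 552 and 439 CPM after culture at 9 days and 584, 895 and 567 CPM at 15 days, but started at 212, 212 and 79.1 CPM at 9 days and at 0.230, 0.964 and 0.611 CPM at 15 days. PAP1 likewise ended at 97.1, 107 and 168 CPM at 9 days and 159, 193 and 182 CPM at 15 days. Jasmonate markers differed in the other direction for the defensins. PDF1.2 had a log2 change of 6.07 ± 0.90 at 9 days and -1.37 ± 0.72 at 15 days, a difference of 7.44 ± 1.13 (adjusted p = 0.000688). PDF1.2c stood at 9.15, 19.3 and 112 CPM in uncultured leaves of 15 days, where it had been at 0.283, 0.111 and 0.0918 CPM at 9 days. The wound-branch genes VSP1 and VSP2, uncalled at 9 days, rose at 15 days by 7.56 and 5.39 on the log2 scale. NAC1 rose at 9 days (2.88 ± 0.40) and was not called at 15 days (-0.30 ± 0.36), a difference of 3.18 ± 0.53. In cultured leaves ERF115 was at 1.25, 1.02 and 1.08 CPM at 9 days and 1.505, 0.757 and 1.39 CPM at 15 days. With no counts before culture at either age, ERF115 and WOX11 give no usable difference.

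The genes whose response differed between 9 and 12 days included carriers of amino acids. AAP2 rose at 9 days, by 1.70 ± 0.37, and fell at 12 days, with a log2 change of -1.99 ± 0.37, a difference of 3.69 ± 0.52 (adjusted p = 0.0259). Its levels before culture were 15.6, 7.82 and 10.8 CPM at 9 days, 169, 121 and 73.5 CPM at 12 days and 93.1, 197 and 126 CPM at 15 days. After culture they were 36.3, 41.2 and 33.7 CPM at 9 days and 23.2, 27.7 and 40.3 CPM at 12 days. UMAMIT20, a transporter of the UMAMIT family that exports amino acids, stood higher in uncultured leaves of 12 days than in cultured leaves of 9 days. UMAMIT20 went from 0.283, 0.258 and 0.183 CPM to 4.00, 3.25 and 5.11 CPM at 9 days, against 15.0, 25.3 and 11.4 CPM before and 20.7, 27.8 and 19.0 CPM after culture at 12 days. UMAMIT17 rose by 3.07 ± 0.40 at 9 days and was not called at 12 days. ATOBGM, a GTP-binding protein, rose by 4.09 ± 0.41 at 9 days and was not called at 12 days. AT1G64360 fell at 12 days (-1.89 ± 0.31) and was not called at 9 days (0.98 ± 0.30).

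Others of these genes, PEL3 and GER3, stood higher in uncultured leaves of 9 days than in those of 12 days. PEL3, an acyltransferase of cuticle formation, fell from 17.2, 18.4 and 10.6 CPM to 1.37, 1.35 and 1.25 CPM at 9 days, and stood at 2.04, 2.35 and 1.38 CPM before culture at 12 days. Its difference between 9 and 12 days was -2.83 ± 0.42. GER3, a germin, stood at 614, 644 and 565 CPM before and 258, 292 and 354 CPM after culture at 9 days, without a call, and fell at 12 days from 207, 44.7 and 416 CPM to 2.87, 0.972 and 4.72 CPM. AT2G37130, a peroxidase, rose at both ages, from 1.04, 0.959 and 1.38 CPM to 24.9, 15.4 and 14.6 CPM at 9 days and to 41.9, 45.8 and 57.4 CPM at 12 days. The 9 to 12 day differences of AAP2, UMAMIT20, UMAMIT17, ATOBGM, AT1G64360, PEL3, GER3 and AT2G37130 were lost without any 1 uncultured 9-day replicate. They were also lost without cultured replicate 2, and all but that of AT2G37130 without cultured replicate 1. For the difference between 9 and 12 days edgeR called no gene without replicate 3, where 2095 genes had an unadjusted p under 0.05. Without cultured replicate 3 edgeR called 37 genes for this difference. Outside the rule for named genes and chosen after their values were seen, the other 3 of the 11 were TET15, with a difference of -7.28 ± 1.15 and mean levels of 0.293 and 0.191 CPM before and after culture at 9 days, AT4G00780 (2.07 ± 0.35) and AT5G27290 (1.67 ± 0.24).

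**Figure D5:**
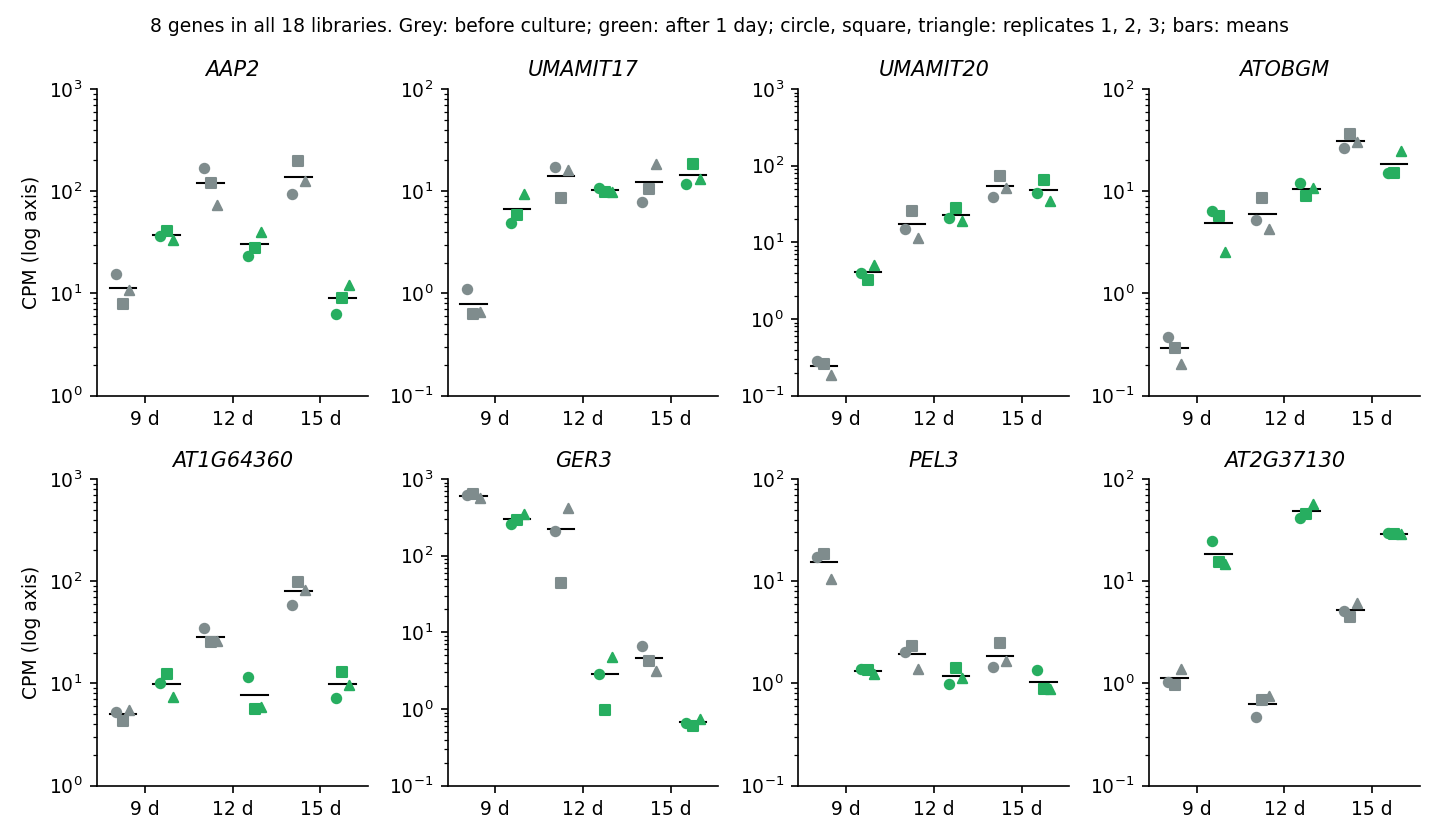
CPM (log axis) of 8 genes whose culture response differed between 9 and 12 days, in all 18 libraries by seedling age, before (grey) and after 1 day of culture (green), with 1 shape per replicate. UMAMIT20 before culture is at 0.183 to 0.283 CPM at 9 days and at 11.4 CPM or more at 12 days, while PEL3 before culture lies between 10.6 and 18.4 CPM at 9 days and at 2.48 CPM or less at 12 and 15 days.

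Among the largest differences between 9 and 15 days were genes of drought, lipids and stress. LTP4, a lipid transfer protein, stood at 1.13, 0.959 and 0.257 CPM before and 0.268, 0.966 and 0.216 CPM after culture at 9 days, and rose at 15 days from 0.361, 0.579 and 0.0489 CPM to 449, 386 and 61.9 CPM. CER1, an enzyme of cuticular wax, stood at 34.7, 39.8 and 24.3 CPM before and 0.686, 3.72 and 20.17 CPM after culture at 9 days, without a call, and rose at 15 days from 0.361, 0.0643 and 0.0733 CPM to 32.6, 44.9 and 9.13 CPM. AT3G02480, annotated as a late embryogenesis abundant protein, and AT4G35160, an annotated methyltransferase, likewise rose at 15 days and were not called at 9 days. NAC3 went the other way, as it rose at 9 days from 1 count to 0.567, 0.263 and 0.552 CPM and fell at 15 days from 27.8, 13.5 and 11.3 CPM to 2.19, 2.46 and 1.71 CPM. Uncultured replicate 2 at 15 days, which stood apart, had the highest levels of DIN11 (70.7 CPM against 0.361 and 2.25), AT4G15690 and AT3G62950 in its group, and without it and its 12-day counterpart the difference of DIN11 did not pass (adjusted p = 0.0622). DIN11 was also called higher at 9 days (log2 fold change 7.18, adjusted p = 0.0451), a call lost in all 6 fits with 1 library left out. AT5G58390, a peroxidase, fell at 15 days and was not called at 9 days. CYP81F4, a P450, had no counts before culture at 15 days, so the size of its fitted difference depends on the prior count.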

How the data were processed

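RNA-seq was analysed from the gene tables the authors deposited for 18 libraries, 6 groups of 3. Per the submitters' processing notes, reads were handled with Trimmomatic, STAR 2.5.3 and RSEM 1.3.0 on TAIR10. The strand setting and annotation version are not given in the sources used here. Per the file headers, the authors' values are RSEM expected counts and TPM. TPM served only to name the top gene. The series text mentions duplicates. The labels give 3 numbered replicates, which were all used. In the series the samples of replicate 3 are numbered apart from those of replicates 1 and 2. Whether they were prepared separately is not stated in the labels.

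Expected counts were rounded to whole numbers. Genes were kept by edgeR 4.0.16 filterByExpr (minimum count 10), leaving 20952 genes. Counts were scaled by TMM and fitted in R 4.3.3 with edgeR's quasi-likelihood model over all 18 libraries with 1 mean per group. Contrasts gave the culture response at each age and its differences between ages. Genes with an adjusted p under 0.05 (Benjamini-Hochberg over all genes) were called. SE is the log2 fold change divided by the root of the F statistic. For groups at 0 counts a bound uses a floor of 3 counts over the group, and ratios on 1 to 3 counts carry exact Clopper-Pearson 95% intervals, which cover counting error only.

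Alternatives were RLE scaling, no low-count filter, the compared ages alone, DESeq2 1.42.0, a replicate block, a term for replicate 3, and leaving out libraries. Same-numbered 9-day samples deviated together (r = 0.257, 0.206 and 0.380 for replicates 1, 2 and 3). The replicate block took the numbers as shared over all 18 libraries, a choice made from these 9-day values and not from the labels. Across groups only replicate 3 deviated together throughout (r = 0.134 to 0.561). Some same-numbered libraries of replicates 1 and 2 deviated in opposite directions. Uncultured replicate 1 at 9 and 12 days gave r = -0.266, and uncultured replicate 2 at 9 and 15 days gave r = -0.103. The main calls come from the fit with 1 mean per group and no pairing. Promoters are the 250 bases before the annotated gene start in RefSeq's TAIR10.1 assembly, and 37390 of 37686 loci matched its annotation.

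The genes and lists were chosen with earlier results of these data known. Named genes were the 12 largest changes in each direction among called genes with a mean of at least 5 CPM in the higher group and no overlap, up to 4 called members per list with up to 2 against the list's majority, 29 fixed genes, and the 6 largest called differences in each direction with at least 5 CPM in a group. Other genes, including families, further list members and genes with large CPM changes, were chosen after their values were seen.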

Additional observations from a re-analysis of the deposited data

Results flagged for a closer look

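Each value here is the log2 fold change on culture at 9 days minus that at an older age, for named genes whose difference passed the test at an adjusted p under 0.05. The differences against 12 and 15 days share the 9-day libraries.

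Against 12 days the difference was positive for GER3 (5.27), UMAMIT20 (3.73), AAP2 (3.69), UMAMIT17 (3.53), ATOBGM (3.28) and AT1G64360 (2.87). It was negative for PEL3 (-2.83) and AT2G37130 (-2.22).

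Against 15 days it was positive, with the more positive response at 9 days, for PDF1.2c (9.76), AT4G15690 (8.52), DIN11 (8.36), NAC3 (8.31), AT3G62950 (8.31), AT5G58390 (8.24), Prx37 (8.19), PDF1.2 (7.44), AAP2 (5.63), GH3.2 (5.04), AAP3 (4.95) and ATOBGM (4.85). Smaller positive differences were those of AT1G36060 (4.80), NAC6 (4.55), EXPA8 (4.38), UMAMIT20 (4.32), IPT7 (4.00), AT1G64360 (3.98), NAC1 (3.18), GH3.5 (2.88), UMAMIT17 (2.82), NRT1.5 (2.42), AT2G37130 (1.53) and RCA (1.24).

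It was most negative for AT3G02480 (-12.02), CYP77B1 (-11.35), LTP4 (-10.53), CYP81F4 (-9.94), AT4G35160 (-9.66), CER1 (-9.47), DFR (-8.60), TT8 (-7.92), PLT7 (-5.94), NIMIN1 (-5.60), AT4G02850 (-5.58), CYCB2;1 (-4.55), AT4G14090 (-4.40), PAP1 (-4.37) and F3H (-4.13). Smaller negative differences were those of CYCB1;1 (-3.97), CYCA2;3 (-3.95), CDT1B (-2.84), PEL3 (-2.70), F3'H (-2.68), CYCA2;4 (-2.54), CDC6 (-2.23), PLT3 (-2.19), CYCD3;1 (-2.14), PLE (-2.09), UGT78D2 (-1.88), CCS52B (-1.84), ARR4 (-1.54), TSB2 (-1.29) and ANT (-1.15). CYP77B1, IPT7 and CYP81F4 had a group with no counts, so the size of their fitted differences depends on the prior count. Among the genes named for the largest differences against 15 days, those of CYP77B1, LTP4, AT4G15690, AT3G62950 and DIN11 did not pass without replicate 3. That of AT4G15690 was also lost without cultured replicate 1 (adjusted p = 0.246). That of DIN11 was kept in 2 of the 6 fits with 1 library left out.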

How the results depend on the processing

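Of the genes called at 9 days, 98.8% were also called with the replicate block, 99.9% without the 2 libraries that stood apart, 99.3% with DESeq2, 98.5% with RLE scaling, 85.6% with no filter, 86.6% with the compared ages alone and 36.5% without replicate 3, where 1 of the 1995 genes had the opposite sign. Leaving out 1 library kept 53.0 to 64.8%. Genes called higher (1215) numbered 2181 without the 2 libraries that stood apart, 442 without replicate 3 and 717 to 896 with 1 library left out. Genes called lower (780) numbered 1370 with DESeq2, 1289 with the compared ages alone, 1666 without those 2 libraries, 1385 with the replicate block, 1305 with a term for replicate 3, 387 without replicate 3 and 298 to 615 with 1 left out. Genes called at 2-fold or more (1367) numbered 639 without replicate 3 and 872 to 1048 with 1 left out. The difference between 9 and 12 days (11 genes) gave 444 with DESeq2, 39 with the compared ages alone, 57 without those 2 libraries, 50 with the replicate block, 55 with the replicate 3 term, 0 without replicate 3 and 0 to 37 with 1 left out. The difference between 9 and 15 days (4334) gave 2225 without replicate 3 and 2962 to 3736 with 1 left out. The block also ended the 9 to 15 day difference of DIN11 (adjusted p = 0.0606). Among the list, family and named genes the text gives at 9 days it ended the calls of PR2, FER1 and FRO3. It added those of RBCS1A, MCM5, NYE1, POLAR, SHR and JAZ12, and changed no other gene that the text names. Among genes that were not called, with 1 library left out log2 values ranged from -0.361 to 0.561 for YUC8, from -0.425 to 0.092 for PLT3 and from -0.02 to 2.2 for NCED3. The sign turned for YUC8 without cultured replicate 1, for PLT3 without uncultured replicate 3 or cultured replicate 2 (0.011), and for NCED3 without uncultured replicate 1 or without replicate 3 (-0.266). The block raised the higher calls of the cytokinin, ethylene and sugar starvation lists to 2 each and those of the jasmonate response list to 4. It raised the lower calls of the root founder, antenna, nitrate and leaf marker lists to 1 each. The cause was not tested. At these depths genes under about 0.1 CPM rest on a few counts.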
